A study of Rattus norvegicus with 10 samples.

Results

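The genes described here are 6 that are used as markers of the nerves and nerve-associated glia of the heart: Th, Dbh, Prph, Stmn2, Chrna3 and Sox10. They were taken by symbol from a table of 18025 genes measured in fetal rat hearts at embryonic day 19.5, all 6 were found in it, and a gene with a mean under 0.1 FPKM (read fragments scaled to transcript length and library size) over the 10 libraries was taken as absent. Of the 6 genes, 3 passed that limit (Dbh, Prph and Stmn2) and 3 did not (Sox10, Th and Chrna3). Nearest to the limit were Stmn2 above it, with a mean of 0.597 FPKM, and Sox10 under it, with 0.0545 FPKM.

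The hearts came from wild-type Sprague-Dawley fetuses in 2 groups of 5 libraries. In the control group (CON1 to CON5) the dams, 3 months old, were given citric acid buffer, and in the hyperglycemia group (HG1 to HG5) dams of that age and strain were given streptozotocin, which destroys the insulin-producing beta cells, in the same buffer by intraperitoneal injection on 3 days in a row. Dams of the HG group had a non-fasting blood glucose above 16 mM, and all dams were mated with normoglycemic males. The sources place the injections differently relative to mating, give no sex of the fetuses, and do not say whether the 5 libraries of a group came from separate dams or litters, so that the p-values measure the spread between these libraries only. One legend in the study speaks of isolated cardiomyocytes where the labels say heart tissue, and its methods mention pooling of the RNA, whereas the values differed between the libraries of a group.

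The heart is innervated by neural crest cells that settle in sympathetic ganglia outside it and in the mostly parasympathetic ganglia on its surface. Sympathetic axons grow into the ventricular wall in late gestation and release noradrenaline, which tyrosine hydroxylase (Th), dopa decarboxylase (Ddc) and dopamine beta-hydroxylase (Dbh) make in sequence from tyrosine and which vesicular monoamine transporters load into vesicles. Nerve cell bodies of sympathetic ganglia lie outside the heart, so that a heart sample holds their axons with little of their nuclear and somatic RNA, whereas intrinsic cardiac neurons, Schwann cells and satellite glia lie within it. Because the samples were whole-tissue RNA, fewer cells of a type and less RNA per cell cannot be told apart in any value given here. For the same reason the cells that held the reads of a gene, nerve or other, were not determined.

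The libraries held from 16672876 to 19109844 reads on genes, and the groups did not differ detectably in this depth (17976102 ± 287553 in CON and 17832001 ± 941164 in HG, mean ± SD, n = 5 each; two-sided exact permutation test, p = 0.770). The share of FPKM on hemoglobin genes was 3.27 ± 0.873% in CON libraries and 2.24 ± 0.264% in HG libraries (mean ± SD, n = 5 each; exact permutation test, p = 0.0317, and 0.0556 to 0.0873 without HG1, HG3, HG4 or HG5). FPKM depends on the other genes of a library, and the median log2 fold change of all tested genes was 0.09. Of 14542 genes tested, 40.1% had an adjusted p under 0.05 in either direction, 28.4% were higher in HG and 11.8% lower, and 1.94% in addition had a log2 fold change above 1 or under -1 (limma, Benjamini-Hochberg). The genes higher in HG made up 70.7% of those called, 47.4% when libraries were scaled by median-of-ratios factors and 53.0% when their quantiles were equalised, so that the direction of small changes across the table depended on the scaling.

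In order of mean level over the 10 libraries, which FPKM makes comparable per length, the 6 genes ran from Prph (1.50 FPKM) and Dbh (1.33) over Stmn2 (0.597) to Sox10 (0.0545), Th (0.0414) and Chrna3 (0.00365). Prph lay above 38.4% of the listed genes, Dbh above 37.4% and Stmn2 above 31.2%, against 15.7% for Sox10, 14.3% for Th and 2.61% for Chrna3. The ranges of Prph and Dbh overlapped within each group, as did those of Sox10 and Th. Whether these neighbours differ in level was not tested. In reads, the 10 libraries together held 556 for Prph, 537 for Dbh, 197 for Stmn2, 30 for Sox10, 14 for Th and 1 for Chrna3.

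**Figure D1:**
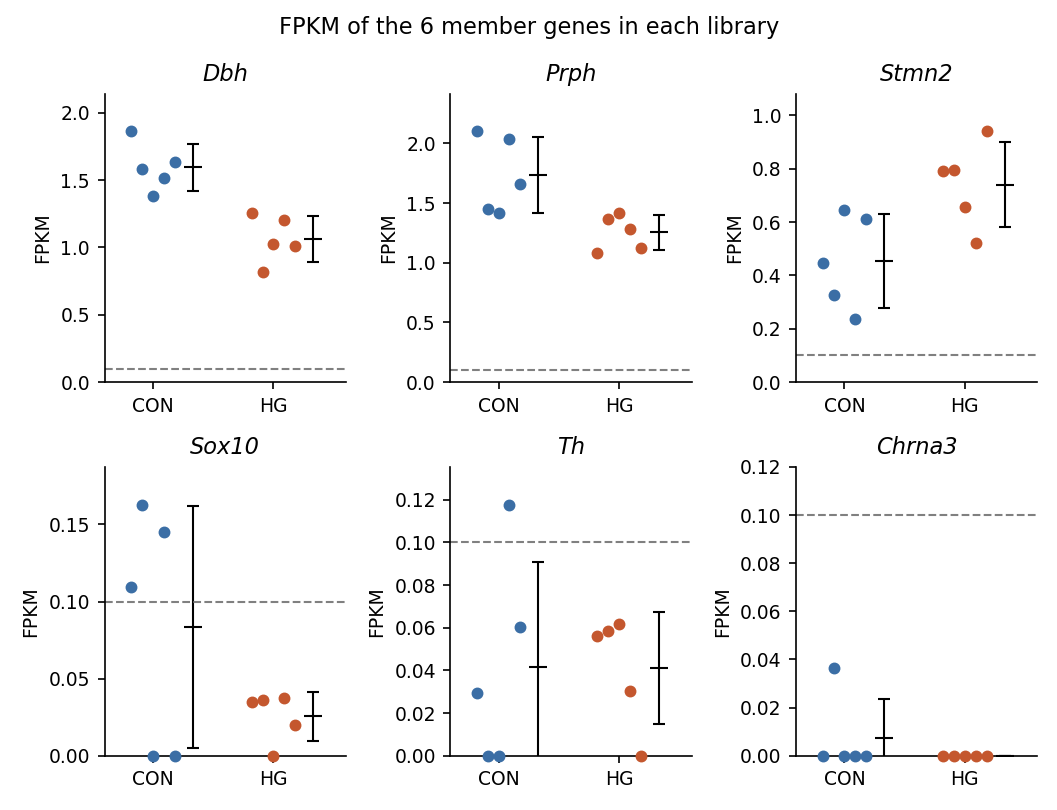
FPKM of the 6 genes in each of the 5 CON (blue) and 5 HG (orange) libraries, each panel with its own linear axis from 0; points are libraries in the order of their numbers, black marks are the mean ± SD, cut at 0, and the dashed line is the limit of 0.1 FPKM. Dbh and Prph lie lower in HG without overlap between the groups, Stmn2 lies higher with overlap, and most libraries of Sox10, Th and Chrna3 are under the limit.

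Upstream sequences are shown for the catecholamine genes Th, Dbh and Slc18a2 and for Prph. Dbh and Prph fell, the vesicular transporter gene Slc18a2 rose and Th stayed under the limit. They were taken from RefSeq promoters of the build GRCr8, which held 4 of the 6 genes (Th, Dbh, Prph and Chrna3), as the 250 bases before the transcript start given with the promoter, read 5′ to 3′ on the strand of the gene. For Th, Dbh and Prph that start lay inside the gene as annotated in the same build, and the Prph window lay wholly inside it. Capitals mark the cyclic AMP response element octamer TGACGTCA, the homeodomain core ATTA (TAAT on the other strand) and the TATA box TATAAA.
Th, chr1:207508219-207508468, minus strand: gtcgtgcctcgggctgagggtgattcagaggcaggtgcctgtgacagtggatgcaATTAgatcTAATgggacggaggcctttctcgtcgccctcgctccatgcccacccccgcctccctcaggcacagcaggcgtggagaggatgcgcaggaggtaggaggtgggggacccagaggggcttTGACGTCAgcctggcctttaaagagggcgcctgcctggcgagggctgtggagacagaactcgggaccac
Dbh, chr3:30886078-30886327, plus strand: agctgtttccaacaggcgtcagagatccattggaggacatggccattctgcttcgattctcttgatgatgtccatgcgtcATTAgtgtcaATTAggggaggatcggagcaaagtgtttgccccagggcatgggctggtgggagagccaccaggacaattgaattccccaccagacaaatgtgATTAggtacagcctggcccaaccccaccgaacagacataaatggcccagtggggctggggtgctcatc
Slc18a2, chr1:268399771-268400020, plus strand: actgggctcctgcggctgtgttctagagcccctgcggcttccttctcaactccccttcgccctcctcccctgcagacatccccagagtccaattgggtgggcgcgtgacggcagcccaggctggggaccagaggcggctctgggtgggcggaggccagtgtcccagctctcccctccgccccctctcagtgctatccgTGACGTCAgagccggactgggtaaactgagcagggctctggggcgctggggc
Prph, chr7:132097039-132097288, plus strand: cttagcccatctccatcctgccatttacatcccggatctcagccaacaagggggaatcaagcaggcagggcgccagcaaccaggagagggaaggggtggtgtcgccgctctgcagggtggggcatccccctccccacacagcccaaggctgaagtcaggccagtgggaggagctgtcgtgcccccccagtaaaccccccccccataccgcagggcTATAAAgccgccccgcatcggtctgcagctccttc
The octamer was found on 69 to 62 bases before the start in Th and on 52 to 45 bases before it in Slc18a2, and 1.59% of 33469 windows of the same length held it. The core ATTA was found 3 times in the Dbh window and 2 times in that of Th, and 57.0% of windows held it. TATAAA was found in the Prph window, 35 to 30 bases before the start, and 12.9% of windows held it. The E-box CANNTG, searched as well and left in lower case, was found 2 times in the Dbh window and 1 time each in those of Th and Slc18a2, and 65.5% of windows held it. Both strands were searched, and no match in these 4 windows overlapped a match of another motif. Windows of Ddc were searched as well and are not shown. The octamer was found in none of them, while ATTA and TATAAA were among their matches. For Slc18a1 no window was found. A match describes the letters only.

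Dbh, which turns dopamine into noradrenaline, was lower in the hearts of HG fetuses. It stood at 1.86, 1.58, 1.38, 1.51 and 1.63 FPKM in CON1 to CON5, from 76, 65, 55, 62 and 65 reads. In HG1 to HG5 it stood at 1.25, 0.821, 1.02, 1.21 and 1.01 FPKM, from 54, 34, 40, 48 and 38 reads. Every HG library was below every CON library. The means were 1.59 ± 0.176 FPKM in CON and 1.06 ± 0.173 in HG (mean ± SD, n = 5 each), a ratio of 0.667. The log2 fold change was -0.55 (95% confidence interval -0.82 to -0.28, SE 0.124), with an adjusted p of 0.00403 in limma over all 14542 genes, and it was past the threshold in 21 of 21 alternatives (adjusted p 0.00216 to 0.0122).

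Prph encodes peripherin, an intermediate filament protein of neurons with axons outside the central nervous system. Its values in CON1 to CON5 were 2.10, 1.45, 1.42, 2.04 and 1.66 FPKM, from 79, 55, 52, 77 and 61 reads. Those in HG1 to HG5 were 1.08, 1.36, 1.42, 1.28 and 1.13 FPKM, from 43, 52, 51, 47 and 39 reads. CON1 and CON4 were the highest, and the groups only just failed to overlap, with 1.4214 FPKM in CON3 above 1.4178 in HG3. The means were 1.74 ± 0.321 FPKM in CON and 1.26 ± 0.145 in HG (mean ± SD, n = 5 each). Prph fell by 0.43 on the log2 scale (95% confidence interval -0.71 to -0.14, SE 0.130; limma, adjusted p = 0.0204). Over the alternatives the adjusted p ran from 0.00983 to 0.0536. The call was lost without CON1 (limma, adjusted p = 0.0530) or CON4 (adjusted p = 0.0518) and stood in the other 8 of 10 runs that left out a library.

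Stmn2 encodes stathmin 2, also called SCG10, a microtubule-binding protein of growing axons, and it was higher in HG. CON1 to CON5 held 0.448, 0.326, 0.644, 0.238 and 0.611 FPKM, from 15, 11, 21, 8 and 20 reads. HG1 to HG5 held 0.793, 0.795, 0.655, 0.521 and 0.941 FPKM, from 28, 27, 21, 17 and 29 reads. HG4 lay within the range of the CON libraries and the other 4 HG libraries above it. The means were 0.453 ± 0.176 FPKM in CON and 0.741 ± 0.159 in HG (mean ± SD, n = 5 each), and the log2 fold change was 0.64 (95% confidence interval 0.15 to 1.14, SE 0.229; limma, adjusted p = 0.0403). This call was not stable: 10 of 20 alternatives gave an adjusted p of 0.05 or more (range 0.0226 without CON3 to 0.0916 without HG5), among them the fits without CON1, CON2, CON4, HG1, HG2 or HG3, with no filter (0.0552), with median-of-ratios factors (0.0733) and with quantile normalization (0.0664).

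The 3 tested genes were thus all called, 2 lower and 1 higher, against shares of 11.8% and 28.4% over all genes, and 0 of the 3 had a log2 fold change above 1 or under -1, against 1.94%. The groups of 2 of them (Dbh and Prph) did not overlap, and the same held for 27.4% of all tested genes. With 3 genes, these shares are a description. The changes of Dbh and Prph were opposite in direction to that of Stmn2.

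**Figure D2:**
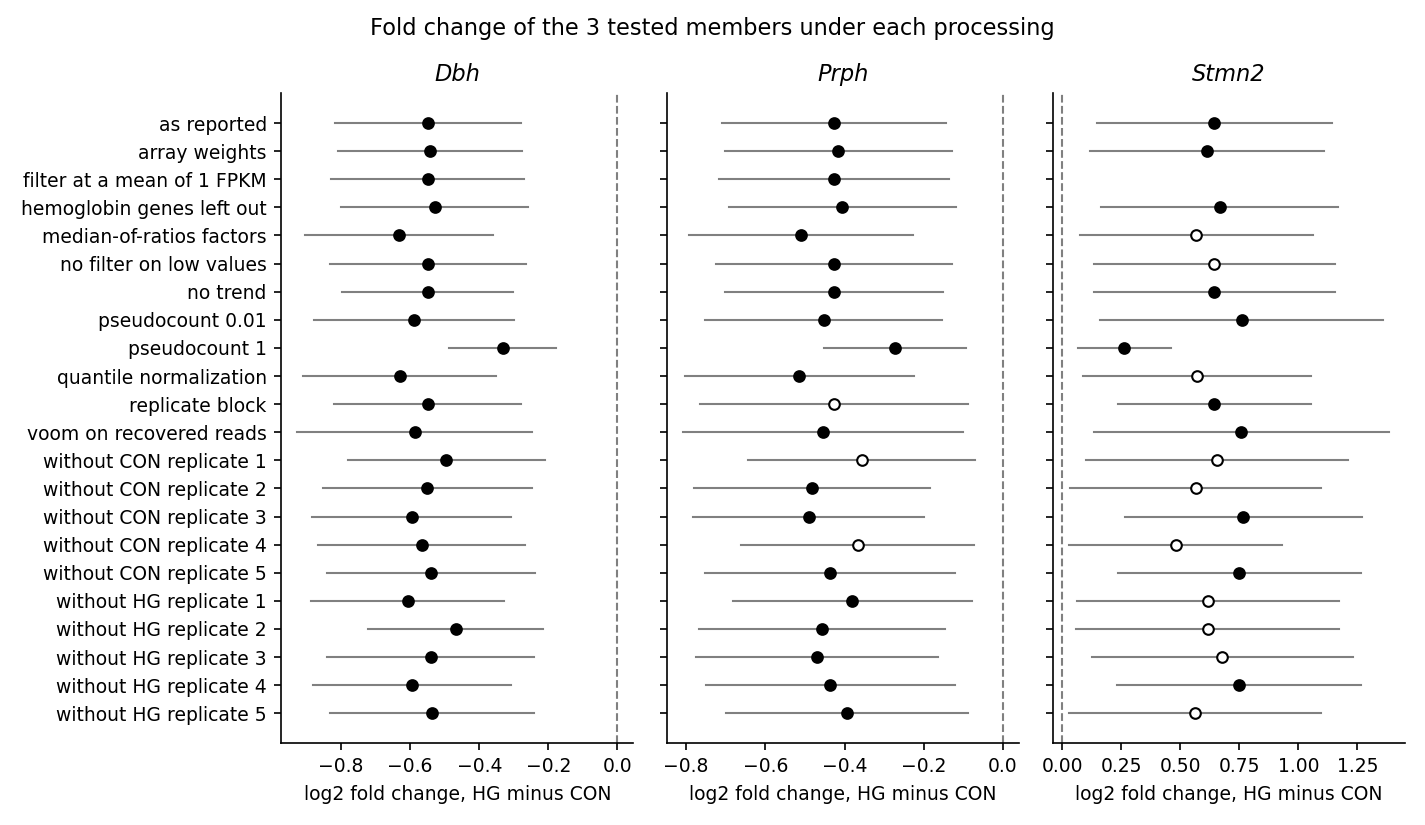
Log2 fold change (HG minus CON, with its 95% confidence interval) of Dbh, Prph and Stmn2 as reported and under each other processing; filled points have an adjusted p under 0.05, open points do not, and Stmn2 was not tested at a limit of 1 FPKM. Dbh is filled throughout, Prph is open under 3 settings and Stmn2 under 10.

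Th, the rate-limiting enzyme of catecholamine synthesis, was under the limit. It had 1, 0, 0, 4 and 2 reads in CON1 to CON5 and 2, 2, 2, 1 and 0 reads in HG1 to HG5, which is 7 reads in each group. In FPKM this was 0.0416 ± 0.0494 in CON and 0.0413 ± 0.0262 in HG (mean ± SD, n = 5 each), and CON4, at 0.118, was the only library above 0.1. In a fit with no filter on low values the log2 fold change was 0.04 with a 95% confidence interval of -0.45 to 0.53 (limma, adjusted p = 0.915). That fit added 0.1 FPKM to each value, more than the Th mean of either group, which understates changes and narrows the interval. A difference was thus not detectable at this depth and a moderate one could not be told from none. Th thus had 14 reads in all where Dbh, which acts later in the same pathway, had 537.

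Sox10, a transcription factor of neural crest cells that stays on in Schwann cells and satellite glia, was under the limit as well. Its reads were 6, 9, 0, 8 and 0 in CON1 to CON5 and 2, 2, 0, 2 and 1 in HG1 to HG5. CON1, CON2 and CON4, at 0.109, 0.163 and 0.145 FPKM, were above 0.1 FPKM, and the other 7 libraries were not, with the HG libraries reaching 0.0374. The totals were 23 reads in CON and 7 in HG, yet CON3 and CON5 had none. In the fit with no filter the log2 fold change was -0.43 with an interval of -1.05 to 0.19 (limma, adjusted p = 0.287). Both are understated by the 0.1 FPKM added to each value, and the ratio of the HG mean to the CON mean was 0.306. A count of 0 in a library allows up to 3 reads.

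Chrna3, the alpha subunit of the main nicotinic receptor of autonomic ganglia, had a value above 0 in CON2 alone, 0.0365 FPKM. That value was taken as 1 read, the smallest number it can be. The other 9 libraries, 5 of them HG, were at 0 reads. Since 3 reads would be worth 0.105 to 0.120 FPKM in an HG library, a count of 0 did not by itself place a library under the limit. No direction was read from this gene.

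The rest of the catecholamine pathway showed its widest differences in vesicular storage. Of 19 genes of synthesis, storage and removal, 14 were tested and 5 called, 2 higher and 3 lower, and the median log2 fold change was -0.01 against 0.09 over all genes. Slc18a1, the vesicular monoamine transporter best known from neuroendocrine cells, stood at 1.53, 1.43, 1.09, 1.16 and 1.30 FPKM in CON1 to CON5. It stood at 0.181, 0.335, 0.487, 0.0871 and 0.507 FPKM in HG1 to HG5, all below the CON libraries. Slc18a1 fell by 1.87 on the log2 scale (SE 0.290, limma, adjusted p = 0.000368). In this fit it was the only gene of these nerve lists past a log2 fold change of 1 in size. The 0.1 FPKM added to each value understates changes of low genes. Under single alternatives others passed that size as well, among them Nos1 (to -1.69), Ptprz1 (1.21), Ntf4 (1.10), Ncam1 (-1.07) and L1cam (1.07).

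Slc18a2, the transporter of monoamine neurons including sympathetic ones, went the other way. Its 5 CON values were 0.813, 0.684, 0.435, 0.510 and 0.615 FPKM and its 5 HG values 0.938, 1.41, 1.42, 1.11 and 1.08 FPKM, again without overlap. The log2 fold change of Slc18a2 was 0.87 (SE 0.167; limma, adjusted p = 0.00150), and like that of Slc18a1 it was past the threshold in 20 of 20 alternatives. In mean FPKM, Slc18a1 was above Slc18a2 in CON (1.30 against 0.612) and below it in HG (0.319 against 1.19).

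Among the enzymes, Ddc, which makes dopamine from DOPA and is also found outside nerves, was by far more abundant than Th and Dbh, at 24.9 ± 2.16 FPKM in CON and 28.7 ± 2.71 in HG (mean ± SD, n = 5 each), and did not pass the test (limma, log2 fold change 0.20, adjusted p = 0.0516; 0.00595 to 0.281 over the alternatives, the lowest without HG2). Maoa, which degrades noradrenaline, rose from 7.95 ± 0.800 to 11.1 ± 0.939 FPKM (a difference of 0.48 on the log2 scale, adjusted p = 0.000479), while Maob fell from 0.461 ± 0.0856 to 0.297 ± 0.0729 (log2 fold change -0.50, adjusted p = 0.0361, 0.0194 to 0.0901 over the alternatives and past the threshold in 10 of 20). Qdpr, which recycles the biopterin cofactor of tyrosine hydroxylase, fell by 0.16 on the log2 scale (adjusted p = 0.00720). The noradrenaline transporter gene Slc6a2, which marks sympathetic axons, had 5 reads in CON and 8 in HG, all 8 in HG2. Pnmt, the enzyme that makes adrenaline, was under the limit with 10 reads in CON and 34 in HG. Npy, the peptide co-released by sympathetic nerves, stood at 3.41 ± 0.790 FPKM in CON and 4.03 ± 1.19 in HG (adjusted p = 0.420).

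**Figure D3:**
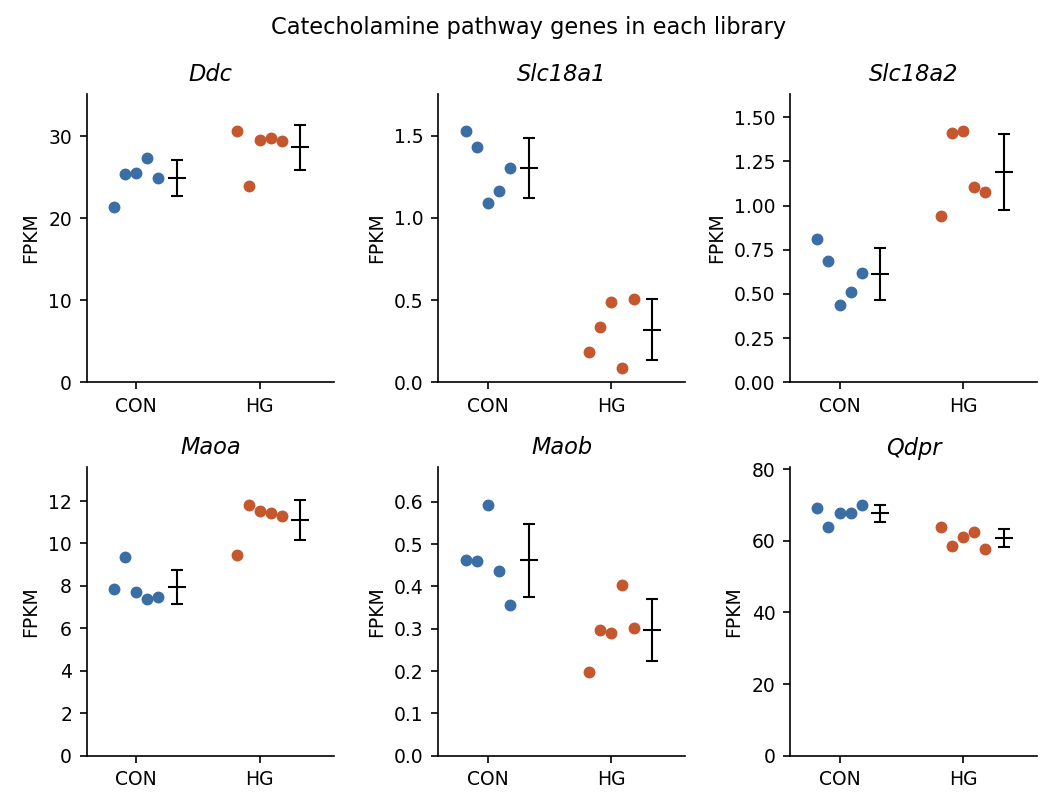
FPKM of Ddc, Slc18a1, Slc18a2, Maoa, Maob and Qdpr in each library, drawn as for the 6 nerve genes with linear axes from 0 and the mean ± SD in black. The CON and HG points of Slc18a1, Slc18a2 and Maoa do not overlap, with Slc18a1 lower and the other pair higher in HG, and those of Ddc, Maob and Qdpr do.

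Phox2a, a homeodomain factor that autonomic neurons need, was near 0, with 2 reads in CON and 3 in HG. Of 11 lineage regulators, 5 were tested and 1 called: Sox11 rose from 8.69 ± 0.889 to 10.6 ± 1.01 FPKM (mean ± SD, n = 5 each; limma, log2 fold change 0.29, adjusted p = 0.0144, and 0.00861 to 0.0864 over the alternatives, the highest with median-of-ratios factors). Hand2 (77.5 FPKM over the 10 libraries), Gata2 (3.17), Gata3 (0.350) and Isl1 (0.255), which other cells of the heart or its vessels use as well, did not pass the test, with adjusted p from 0.178 to 0.516.

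Parasympathetic neurons make acetylcholine with choline acetyltransferase (Chat), of which the 10 libraries held 1 read. The choline transporter gene Slc5a7 stood at 0.145 ± 0.112 FPKM in CON and 0.0657 ± 0.0724 in HG (mean ± SD, n = 5 each; limma, adjusted p = 0.301), and the acetylcholine-degrading enzymes Ache and Bche did not pass the test either. The vesicular transporter gene Slc18a3 was looked for and was not in the table, so that it could not be tested. All 18025 genes of the table had reads, and whether Slc18a3 is missing from it for want of reads was not determined. Of 4 tested genes of this list 1 was called: Nos1, a nitric oxide synthase of neurons and muscle, was lower, at 0.222 ± 0.0673 FPKM in CON and 0.0913 ± 0.0868 in HG (log2 fold change -0.84, adjusted p = 0.0389, 0.00858 to 0.0917 over the alternatives and past the threshold in 11 of 20 alternatives).

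Other subunits of neuronal nicotinic receptors were scarce except Chrna5. Of 10 genes, 3 were tested and 2 called, both higher. Chrna5, an accessory subunit that lies beside Chrna3 in the genome, rose from 5.86 ± 0.650 to 7.38 ± 1.02 FPKM (mean ± SD, n = 5 each; limma, log2 fold change 0.32, adjusted p = 0.0228, and 0.0140 to 0.101 over the alternatives, the highest with quantile normalization). That call stood in 16 of 21 alternatives and was lost without CON5, HG4 or HG5 as well. Chrna4 rose from 0.241 ± 0.0451 to 0.372 ± 0.0754 FPKM (adjusted p = 0.0441, 0.0144 to 0.103 over the alternatives and past the threshold in 9 of 20 alternatives). Chrnb2, the usual partner of the alpha-4 subunit, did not pass the test (log2 fold change 0.30, adjusted p = 0.408), and Chrnb4, the usual partner of the alpha-3 subunit, had 3 reads in CON and 5 in HG.

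Of 16 tested genes of the neuronal cytoskeleton and axon growth, 3 were called, 2 higher and 1 lower. Dpysl3 rose from 66.3 ± 2.19 to 79.5 ± 4.54 FPKM (mean ± SD, n = 5 each; limma, log2 fold change 0.26, adjusted p = 0.000519) and its relative Crmp1, which like it takes part in axon guidance, from 4.92 ± 0.304 to 6.34 ± 0.851 (log2 fold change 0.35, adjusted p = 0.00965, and 0.000697 to 0.0603 over the alternatives, the highest with quantile normalization). Rtn1, a reticulon of the endoplasmic reticulum, fell from 12.8 ± 0.228 to 10.8 ± 0.825 FPKM (a difference of -0.24 on the log2 scale, adjusted p = 0.00354). Tubb3, the tubulin used to stain neurons, stood at 0.271 ± 0.133 FPKM in CON and 0.228 ± 0.136 in HG (adjusted p = 0.633), and Gap43, a protein of growth cones, at 0.651 ± 0.186 and 0.796 ± 0.252 (adjusted p = 0.419). Uchl1, also named PGP9.5 and used to stain nerves, stood at 32.2 ± 2.92 and 37.6 ± 5.08 FPKM (adjusted p = 0.0686), and Dpysl5 at 0.303 ± 0.0882 and 0.480 ± 0.124 (adjusted p = 0.0556). Dpysl3 and Uchl1 lay far above Tubb3 in level, and which cells held them was not tested.

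Among the relatives of Stmn2 in the stathmin family, 2 were tested and neither was called; the difference between Stmn2 and its relatives was not tested. Stmn1, which dividing cells express, was the most abundant at 268 ± 18.2 FPKM in CON and 295 ± 28.6 in HG (mean ± SD, n = 5 each; limma, log2 fold change 0.13, adjusted p = 0.123; 0.00910 to 0.654 over the alternatives, the lowest with quantile normalization). Stmn4, a neuronal member, stood at 2.00 ± 0.564 and 2.08 ± 0.601 FPKM (log2 fold change 0.06, SE 0.226, adjusted p = 0.846), and Stmn3, the other neuronal member, had 1 read in CON and 4 in HG.

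The intermediate filaments related to peripherin were called in 4 of 7 cases, Prph included, 3 lower and 1 higher. The muscle members Des and Sync fell, Des from 600.1 ± 32.0 to 476 ± 37.2 FPKM (mean ± SD, n = 5 each; limma, log2 fold change -0.34, adjusted p = 0.000625) and Sync from 18.9 ± 2.31 to 12.8 ± 0.378 (log2 fold change -0.56, adjusted p = 0.000134). Nes, the nestin of progenitor cells, rose from 9.05 ± 0.735 to 12.3 ± 0.870 FPKM (a difference of 0.44 on the log2 scale, adjusted p = 0.000317). The heavy neurofilament gene Nefh stood at 1.36 ± 0.156 and 1.75 ± 0.761 FPKM (adjusted p = 0.480), and Vim, the vimentin of mesenchyme, at 688 ± 14.9 and 740 ± 54.4 (adjusted p = 0.112). The light and medium neurofilament genes Nefl and Nefm were under the limit, with 33 and 43 reads over the 10 libraries.

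Of 9 tested genes of synapse and excitability, 3 were called. Syn2, a synapsin that tethers synaptic vesicles, rose from 0.960 ± 0.229 to 1.66 ± 0.172 FPKM (mean ± SD, n = 5 each; limma, log2 fold change 0.75, adjusted p = 0.00166). Its groups did not overlap. Scn3a, a sodium channel of immature neurons, fell from 0.163 ± 0.0344 to 0.0840 ± 0.00937 FPKM (a difference of -0.50 on the log2 scale, adjusted p = 0.0426, 0.00163 to 0.103 over the alternatives and past the threshold in 10 of 20 alternatives). The related Syn1 (adjusted p = 0.148) and Vamp2, a protein of vesicle fusion (0.721), did not pass the test.

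Genes of Schwann cells and satellite glia moved in both directions. Of 15 tested, 5 were called, 3 higher and 2 lower, with a median log2 fold change of 0.03. Ncam1, the neural cell adhesion molecule, which embryonic heart muscle carries as well, stood at 40.4, 40.0, 39.5, 38.5 and 43.8 FPKM in CON1 to CON5. It stood at 18.7, 21.7, 19.1, 21.2 and 21.2 FPKM in HG1 to HG5, about 0.505 of the CON mean (log2 fold change -0.98, SE 0.0521; limma, adjusted p = 2.41e-07). Pmp22, a myelin protein found in other tissues as well, fell from 20.6 ± 1.91 to 13.4 ± 1.26 FPKM (mean ± SD, n = 5 each; log2 fold change -0.62, adjusted p = 8.39e-05). The summed level of the list was 75.2 to 81.7 FPKM in the CON libraries and 53.7 to 56.2 in the HG libraries. Ncam1 and Pmp22 made up this difference, since the other 19 listed genes summed to 17.8 to 20.7 FPKM in CON and 18.3 to 24.2 in HG, and the groups overlapped.

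L1cam, an adhesion molecule of axons and Schwann cells, was higher in HG, with 0.530, 0.351, 0.490, 0.796 and 0.553 FPKM in CON and 1.38, 1.12, 1.39, 0.810 and 0.936 in HG (limma, log2 fold change 0.94, adjusted p = 0.00246). Ptprz1, a receptor phosphatase of glia, rose from 0.114 ± 0.0386 to 0.268 ± 0.0963 FPKM (mean ± SD, n = 5 each; log2 fold change 0.76, adjusted p = 0.0200, and 0.00790 to 0.0541 over the alternatives, lost without HG3), and Cnp, an enzyme of myelinating cells, from 4.35 ± 0.346 to 5.40 ± 0.743 (log2 fold change 0.30, adjusted p = 0.0259, and 0.00865 to 0.151 over the alternatives, the highest with quantile normalization). The call of Cnp stood in 14 of 21 alternatives and was lost without CON2, CON4, HG2, HG3 or HG4 as well. S100b, Erbb3 and Ngfr, which are used more widely as Schwann cell markers, did not pass the test. S100b stood at 0.299 ± 0.155 FPKM in CON and 0.501 ± 0.281 in HG (adjusted p = 0.326), Erbb3, the neuregulin receptor, at 0.209 ± 0.0451 and 0.297 ± 0.0664 (adjusted p = 0.154), and Ngfr, the p75 neurotrophin receptor, at 0.882 ± 0.166 and 1.18 ± 0.247 (adjusted p = 0.0775). Sox8, the close relative of Sox10, stood at 0.445 ± 0.136 and 0.271 ± 0.0874 FPKM (a difference of -0.55 on the log2 scale, adjusted p = 0.0734).

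**Figure D4:**
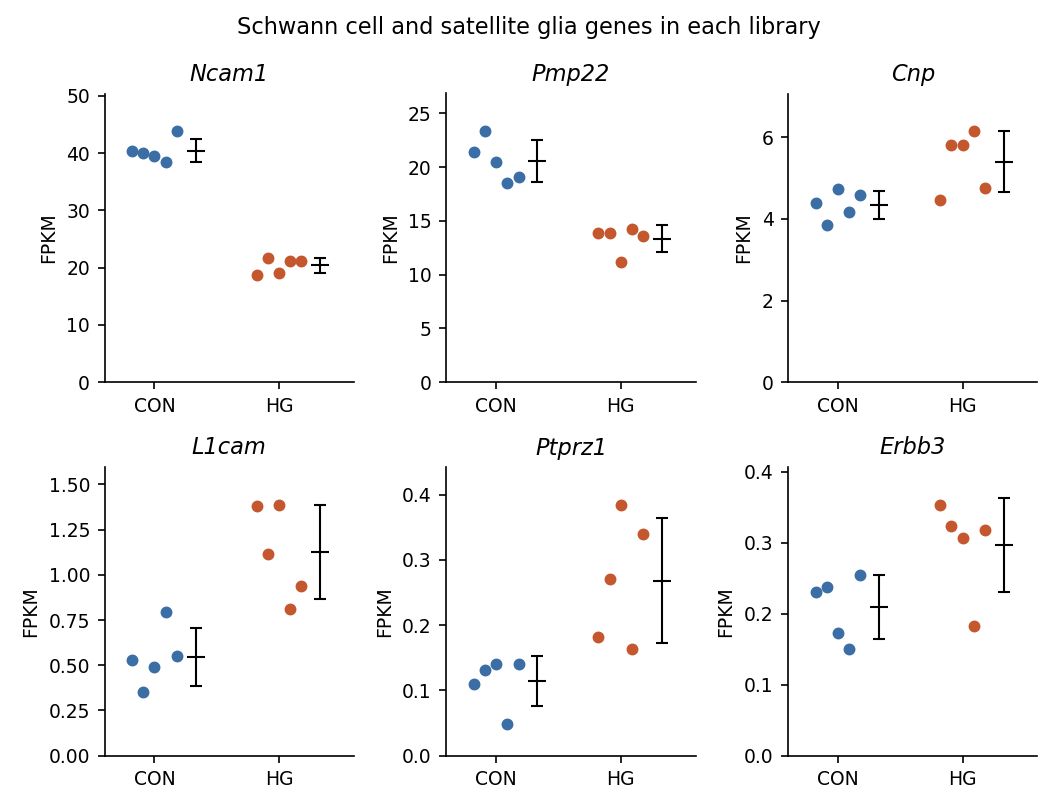
FPKM of Ncam1, Pmp22, Cnp, L1cam, Ptprz1 and Erbb3 in each library, on linear axes from 0 with the mean ± SD in black. Ncam1 and Pmp22 lie lower and L1cam and Ptprz1 higher in HG without overlap, and the groups overlap for Cnp and Erbb3.

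Of 14 tested genes of neurotrophic and guidance signals and their receptors, 5 were called, 4 higher and 1 lower. Nrtn, the neurturin on which parasympathetic neurons depend, fell from 3.54 ± 0.650 to 2.19 ± 0.345 FPKM (mean ± SD, n = 5 each; limma, log2 fold change -0.66, adjusted p = 0.00190). Ret, the receptor tyrosine kinase through which neurturin acts, stood at 0.282 ± 0.121 and 0.135 ± 0.0392 FPKM (a difference of -0.65 on the log2 scale, adjusted p = 0.0519; 0.0152 to 0.125 over the alternatives, the lowest without CON3), and its co-receptor Gfra2 at 0.616 ± 0.195 and 0.607 ± 0.109 (adjusted p = 0.950). Nrg1, the neuregulin that Schwann cells and myocardium receive, rose from 0.303 ± 0.0475 to 0.544 ± 0.10 FPKM (a difference of 0.67 on the log2 scale, adjusted p = 0.00500), and Ntf4, a neurotrophin, from 0.325 ± 0.116 to 0.676 ± 0.138 (log2 fold change 0.90, adjusted p = 0.00594). The groups of Nrtn, Nrg1 and Ntf4 did not overlap.

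Sema3a, which repels sympathetic axons, stood at 1.41 ± 0.0794 FPKM in CON and 1.65 ± 0.176 in HG (mean ± SD, n = 5 each, limma, adjusted p = 0.101), and its receptor Nrp1, also on endothelium, rose from 25.9 ± 1.94 to 30.3 ± 1.53 (log2 fold change 0.23, adjusted p = 0.00634, and 0.00307 to 0.0622 over the alternatives, lost with median-of-ratios factors). Ednrb, an endothelin receptor of neural crest and vessels, rose from 12.6 ± 0.753 to 15.8 ± 1.50 FPKM (a difference of 0.32 on the log2 scale, adjusted p = 0.00244).

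Over these 10 lists without the 6 genes themselves, 127 of 131 genes were in the table, 85 were tested and 28 were called, 17 higher and 11 lower. The share called was 32.9%, beside the 40.1% of all tested genes. Of the 28 calls, 18 stood in every alternative in which the gene was tested and 10 were lost in at least 1.

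**Figure D5:**
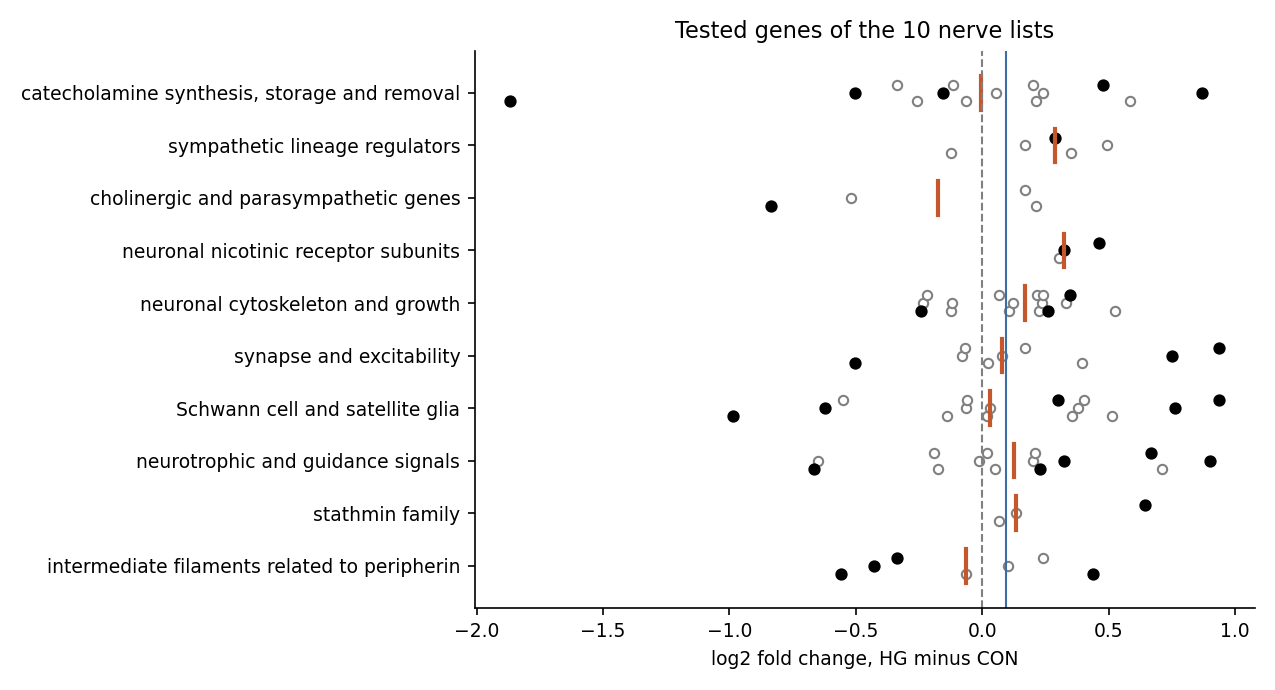
Log2 fold change (HG minus CON) of the tested genes of 10 lists of nerve and glia genes; filled points have an adjusted p under 0.05, open points do not, orange bars are the medians of the lists and the blue line is the median of all tested genes, 0.09. Slc18a1 stands farthest left at -1.87, and filled points lie on both sides of 0 in most lists.

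Markers of other cells that could hold these transcripts were set beside them. The sensory neuron list, 8 of 11 genes in the table, summed to 0.0909 to 0.329 FPKM in CON libraries and 0.213 to 0.311 in HG libraries, with 1 gene tested and 0 called, and the central neuron list had 2 tested and 0 called. Of 3 tested genes of adrenal cortex and medulla, whose chromaffin cells make Dbh, 1 was called: Cyp11a1 fell from 1.50 ± 0.185 to 0.953 ± 0.141 FPKM (mean ± SD, n = 5 each; limma, adjusted p = 0.00187), while Chga, the chromogranin of chromaffin granules, had 0 reads in CON and 1 in HG. The summed level of the adrenal list was 18.1 to 34.8 FPKM in CON and 20.1 to 39.9 in HG, nearly all of it from Penk, the enkephalin precursor, named after its values were seen (22.7 ± 5.89 and 24.7 ± 8.25 FPKM, adjusted p = 0.718). The other 6 listed genes summed to 1.77 to 2.58 FPKM in CON and 1.17 to 1.99 in HG. Of 5 tested melanocyte genes, also of the neural crest, Kit alone was called and fell from 8.83 ± 0.398 to 6.23 ± 0.360 FPKM (adjusted p = 4.00e-05).

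Skeletal muscle genes were higher in 2 of 4 tested cases (Tnni2 and Myog; list sum 3.43 to 4.19 FPKM in CON and 4.10 to 8.29 in HG), lymphocyte genes in 1 of 3 (Lck) and pacemaker genes in 3 of 7 (Tbx18, Cacna1g and Cacna1d). The calls of Lck (limma, adjusted p = 0.0453, up to 0.107 over the alternatives) and Cacna1d (0.0460, up to 0.103) each held in 7 of 20 alternatives. Myog (adjusted p = 0.0237, up to 0.0620) lost its call without CON1, CON4, HG3 or HG5, and Cacna1g (0.00965, up to 0.0651) with median-of-ratios factors. Of 8 cardiomyocyte genes, 5 were lower, Myh6, Tnni3 and Ryr2 with the smallest adjusted p, and 1 higher. Endothelium had 1 of 5 called (Emcn, higher), fibroblasts 3 of 5 (Tcf21 and Pdgfra higher, Dcn lower) and epicardium 1 of 5 (Upk1b, lower, adjusted p = 0.0268 and up to 0.0637 over the alternatives, lost without CON1, CON2, CON3, HG1 or HG3), and the lung epithelium list, with a summed level of 0 to 0.196 FPKM, had no gene above the limit. The part of these differences in the values of Dbh, Prph and Stmn2 was not tested.

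Across the 10 libraries, the deviations of Dbh, Prph and Stmn2 from their group means, on the log2(FPKM + 0.1) scale, had little in common (Pearson r 0.06 for Dbh with Prph, -0.20 for Dbh with Stmn2 and -0.46 for Prph with Stmn2). The genes most like Dbh in this respect were LOC103691872 (r 0.94), Nog (0.93) and Lrpprc (0.93), those most like Prph were Ess2 (0.91), Adat3 (0.90) and Kxd1 (0.90), and those most like Stmn2 were Gpank1 (0.94), Rhbdl3 (0.94) and Vill (0.94). These are descriptions over 10 libraries and 14542 genes, picked as the highest, and all values of a library share its depth.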

How the data were processed

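Hearts of 5 CON and 5 HG fetuses were measured by stranded mRNA sequencing. The authors deposited FPKM per gene, and the submitters' processing notes name fastp, HISAT2, HTSeq, R 3.2.0 and the build mRatBN7.2; the strand setting of the counting is not given in the sources used here. In 100% of genes, each FPKM value was a multiple of a fitted value of 1 read (tolerance 0.01 reads), from which reads were recovered. For a gene above 0 in few libraries such a value can readily be found, and its reads are then the smallest possible numbers. Depths of 16672876 to 19109844 reads per library set the precision, and counts of 0 allow up to 3 reads, counting error only. Every per-sample column was used (0 unused).

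The 14542 genes averaging 0.1 FPKM or more (3483 fell below) were compared as log2(FPKM + 0.1), which understates changes of low genes, with limma 3.58.1 in R 4.3.3 (linear model, empirical Bayes with trend, no covariate), HG minus CON, with Benjamini-Hochberg adjustment over all of them; calls had an adjusted p under 0.05. The study's count method was not run; of methods for counts, voom was run on the recovered reads, as an alternative. Depth and hemoglobin were compared by two-sided exact permutation tests (smallest p for 5 against 5, 0.00794; Python 3.11.15, scipy 1.17.1), and the scripts were tested on simulated data.

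The 6 genes and the lists (10 of nerve and glia genes, 12 of other cells) were chosen with earlier results of these data known. Named were the 6 genes; in each nerve list up to 5 tested genes with the smallest adjusted p, up to 2 with the highest mean and a fixed set of 26 markers; in other lists up to 3 called genes; and the 3 genes most like each tested member. Npy, Gfra2, Sox8, Nefh, Nefl, Nefm and Chga were added after their values were seen, and some genes the rule names are not reported here. Alternatives were pseudocounts of 0.01 and 1, no filter or a filter at 1 FPKM, libraries rescaled by median-of-ratios factors, by quantiles or without hemoglobin genes, array weights, a fit with no trend, the replicate number as a block, voom on the recovered reads, and each library left out in turn. The groups share replicate numbers, and no pairing by them was detected over all tested genes (correlations of the deviations of same-numbered libraries from -0.13 to 0.11). A pairing that touches fewer genes was not tested.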

Additional observations from a re-analysis of the deposited data

Results flagged for a closer look

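Among 128 groups of 5 libraries checked (the 6 genes, the named nerve genes, depth and hemoglobin), 11 held a library set apart from the rest by more than Dixon's critical value of 0.71, and chance flags about 1 in 20 such groups. In 5 of them a single library was above 0, from few reads. These were Chrna3 in CON2 (0.0365 FPKM), Chat in CON2 (0.0153 FPKM), Stmn3 in CON4 (0.0501 FPKM), Phox2a in HG3 (0.108 FPKM) and Slc6a2 in HG2 (0.0706 FPKM).

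Ddc was low in HG2, at 23.9 FPKM, where the next library stood at 29.5. HG1 was low for Maoa (9.47 FPKM, next 11.3), HG2 for Syn2 (1.35 FPKM, next 1.72), HG3 for Pmp22 (11.1 FPKM, next 13.6) and HG4 for Erbb3 (0.182 FPKM, next 0.306). CON2 was high for Maoa (9.34 FPKM, next 7.87). Of the 6 groups of Dbh, Prph and Stmn2, 0 held such a library.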

How the results depend on the processing

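Dbh kept its direction and its call under all 21 alternatives, with log2 fold changes from -0.63 to -0.33 (-0.61 to -0.47 with 1 library left out). Prph and Stmn2 kept their direction. The replicate block left the fold change of Prph at -0.43 and ended its call (adjusted p = 0.0536); over the runs without 1 library its fold change lay between -0.49 and -0.36. For Stmn2 the call was lost with no filter (log2 fold change 0.64), median-of-ratios factors (0.57) and quantile normalization (0.57), and its fold change lay between 0.48 and 0.77 with 1 library left out; at a limit of 1 FPKM it was not tested. Of the 6 genes, 1 to 3 were called with 1 library left out. The cause was not tested. Of the other listed nerve genes, 18 were called at a limit of 1 FPKM, where fewer genes were tested, and 23 to 29 with 1 library left out, against 28. Genes past a log2 fold change of 1 numbered 282, 64 with a pseudocount of 1, which shrinks the changes of low genes, 134 at a limit of 1 FPKM and 426 with voom. The difference in hemoglobin ran from -1.28 to -0.792 percentage points with 1 library left out, and that in reads on genes from -463562 to 145680, where it turned positive without HG5.

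No pairing by replicate number was detected over all tested genes (0 of 5 libraries correlated best with their own number). The replicate block gave 5096 calls in place of 5836 over all genes and ended the call of Prph among the 6 genes. Dbh, Prph and Stmn2 rested on 8 to 79 reads per library, and at this depth a change in Th, Sox10 or Chrna3 was not detectable.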

Other observations

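Several nerve and glia genes under the limit of 0.1 FPKM, chosen after their values were seen and not tested, had uneven reads between the groups. Cdh19, a cadherin of Schwann cell precursors, had 7 reads in CON and 0 in HG, where 0 in a library allows up to 3 reads, and Chgb, a granin of secretory granules, 29 and 6. Ina, a neuronal intermediate filament, had 5 reads in CON and 26 in HG.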
